A study of Caenorhabditis elegans with 6 samples.

Results

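Small RNA reads at genes of the Caenorhabditis elegans sperm were followed across 3 strains that lack germ line small RNA factors. The genes were chosen by name alone: every locus listed as msp, spe, fer, ssp, ssq, sss or nspd followed by a number, together with gsp-3, gsp-4, snf-10 and try-5. This gave 85 of the 42402 loci in the deposited tables, made up of 31 msp genes, 21 spe genes with fer-1, 12 ssp, 4 ssq, 2 sss, 10 nspd and the 4 single genes. The groups were a triple mutant, which carries the allele tm1200 of hrde-1 together with ax3055 of meg-3 and ax3052 of meg-4, the strain meg-3 meg-4 with the same 2 meg alleles, which the labels name JH3745 and call outcrossed, and the single mutant hrde-1 with tm1200, with 2 libraries each. All worms were sampled whole at the stage the labels call young mother, after synchronisation by starvation and growth at 20 °C on HT115 bacteria carrying L4440. Their RNA was treated with a 5' polyphosphatase, an enzyme that lets small RNAs with a 5' triphosphate into the library. The wild type N2 enters only through comparisons that the authors deposited, which set N2 against hrde-1 and against triple mutants.

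A C. elegans hermaphrodite makes sperm first and then oocytes for the rest of its life, so a young mother carries stored sperm and a germ line that no longer makes them. Major sperm proteins (MSPs) are small proteins that assemble into the filaments that drive the crawling of these amoeboid sperm, and they are also released as the signal that tells oocytes to mature. Genes named spe and fer were found through sterile mutants that make defective sperm, and many of them act in the membranous organelles that sperm need to become motile and to fuse with the egg. Small RNAs against germ line transcripts are made in perinuclear granules and loaded onto Argonaute proteins. HRDE-1 is one such Argonaute, found in germ line nuclei. P granules, the best known of the granules, are built on the disordered proteins MEG-3 and MEG-4.

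Sequenced depth, as reads recovered from the deposited values, ranged from 2384147 to 6780320 per library. At meg-4 (listed as C36C9.1) the triple mutant libraries had 0 and 0 reads and the meg-3 meg-4 libraries 0 and 0, which allows up to 3 reads in each, against 48 and 39 in hrde-1. At meg-3 (listed as gei-12) triple mutants had 0 and 0 reads and meg-3 meg-4 had 2 and 3, against 52 and 22 in hrde-1. Reads at the hrde-1 locus were present in all 6 libraries and do not check the label, since small RNAs at a gene are not its mRNA and the labels do not say what tm1200 removes. The second meg-3 meg-4 library stood apart in small RNAs at genes of other tissues. Summed over the 6 vitellogenin genes, which encode yolk proteins of the intestine, it held a level of 3231 RPM (reads scaled to a common library size that was adjusted by the trimmed mean of M values, TMM), against 274 RPM in the first library of that strain and 38.8 to 151 RPM in the other 4 libraries. Summed over 6 muscle genes it held 179.5 RPM, against 27.7 RPM in the first library and 6.39 to 15.7 RPM in the other 4. The labels do not say that replicates came from separate cultures, so the p-values measure the spread between these libraries, which may be technical. In whole worms, fewer cells of a type and less RNA per cell cannot be told apart.

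Small RNAs at sperm genes were a small share of every library. All 85 genes together took 0.0365% and 0.0409% of the reads in triple mutants, 0.0518% and 0.0266% in meg-3 meg-4, and 0.0518% and 0.0722% in hrde-1. Over the 6 libraries 5 genes had no read (msp-51, msp-79, msp-113, nspd-6 and ssp-37), 10 had between 1 and 9 reads, 70 had at least 10 and 28 had at least 100. Reads were present in every library at 60 of the 85. Per kilobase of exon (lengths from the WBcel235 annotation, to which all 85 genes were matched), the median level over the 85 genes was 3.34 RPM per kb, beside 1.04 RPM per kb over 19575 protein-coding loci. No read was counted at 5.88% of the sperm genes, beside 12.3% of the protein-coding loci. Single genes lay on both sides of the protein-coding median.

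The families differed in level per length. The nspd genes, a family of small nematode-specific peptides with male germ line expression, had a median of 13.6 RPM per kb, and the ssp genes, which encode short proteins with an MSP domain, a median of 7.82 RPM per kb. The msp genes had a median of 2.34 RPM per kb and the spe genes with fer-1 a median of 2.18 RPM per kb. The gene with the highest level per length was spe-47, with 95.1 RPM per kb, which lay at the 97.0 percentile of the protein-coding loci. It was followed by ssp-34 with 86.3 RPM per kb and ssp-16 with 61.4 RPM per kb. The highest msp gene, msp-50, had 30.6 RPM per kb. fer-1, whose transcript is long, had 0.701 RPM per kb averaged over all 6 libraries, at the 45.1 percentile.

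The 31 msp genes lie on chromosome IV (18 genes) and chromosome II (13 genes) of the reference. They are near-identical copies, and how the authors assigned reads with several matches is not given in the sources used here, so the split of reads between single msp genes is uncertain while their sum is less so. Summed over the 31 genes, the triple mutant libraries had 54.6 and 39.4 RPM, the meg-3 meg-4 libraries 54.7 and 23.5 RPM, and the hrde-1 libraries 44.4 and 63.3 RPM. The means were 46.98 ± 10.8 RPM in triple mutants, 39.1 ± 22.1 RPM in meg-3 meg-4 and 53.8 ± 13.3 RPM in hrde-1 (SD, n = 2 each). On this scale the ranges of the 3 strains overlapped, and the differences between the means were no larger than the spread within meg-3 meg-4. Scaled to library totals the sums were 44.5 and 35.2 RPM in triple mutants, 57.6 and 22.9 RPM in meg-3 meg-4, and 56.1 and 66.9 RPM in hrde-1, where triple mutants and hrde-1 did not overlap. Scaled to miRNA reads the means were 34.3 RPM in triple mutants, 33.7 RPM in meg-3 meg-4 and 85.2 RPM in hrde-1, and both hrde-1 libraries lay above all others. All loci moved the same way under these scalings: in triple mutants over hrde-1 their median log2 fold change was −0.41 with library totals and −0.98 with miRNA reads, beside −0.05 with TMM. At msp-50, the msp gene with the most reads, triple mutants had 82 and 26 reads, meg-3 meg-4 had 74 and 26, and hrde-1 had 68 and 78. Scaled to depth these were 14.8 and 12.2 RPM in triple mutants, 12.5 and 5.22 RPM in meg-3 meg-4, and 9.87 and 16.0 RPM in hrde-1. The highest and the lowest of these 6 values thus belong to libraries of different strains, with both triple mutant values inside the range. The next msp genes were msp-49, msp-81, msp-142, msp-36, msp-33, msp-40 and msp-3, whose mean levels over the 6 libraries ran from 4.77 RPM at msp-49 to 1.68 RPM at msp-3. In the second triple mutant library, the shallowest, 1 read was worth 0.469 RPM, so most msp genes rest there on a few reads or none.

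The spe genes with fer-1 stood out from the msp genes through 1 member. Summed over the 22 genes, triple mutants had 190 and 227 RPM, meg-3 meg-4 had 177 and 151 RPM, and hrde-1 had 237 and 387 RPM. spe-47 alone took 45.8% and 57.1% of the reads at these genes in triple mutants, 21.4% and 27.6% in meg-3 meg-4, and 65.9% and 68.2% in hrde-1. Without spe-47 the sums were 103 and 97.5 RPM in triple mutants, 139 and 110 RPM in meg-3 meg-4, and 80.7 and 123 RPM in hrde-1. The order of the strains thus turned with this 1 gene: hrde-1 was highest with it, and the first meg-3 meg-4 library without it. The ssp, ssq and sss genes summed to 155 and 144 RPM in triple mutants, 192 and 73.7 RPM in meg-3 meg-4, and 97.4 and 171.5 RPM in hrde-1. The 10 nspd genes summed to 35.6 and 34.2 RPM in triple mutants, 50.6 and 17.1 RPM in meg-3 meg-4, and 22.8 and 45.0 RPM in hrde-1. The 4 single genes summed to 12.7 and 12.7 RPM in triple mutants, 18.4 and 7.43 RPM in meg-3 meg-4, and 8.57 and 15.8 RPM in hrde-1. In each of these 3 families the triple mutant libraries lay inside the range of the other 2 strains.

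**Figure D1:**
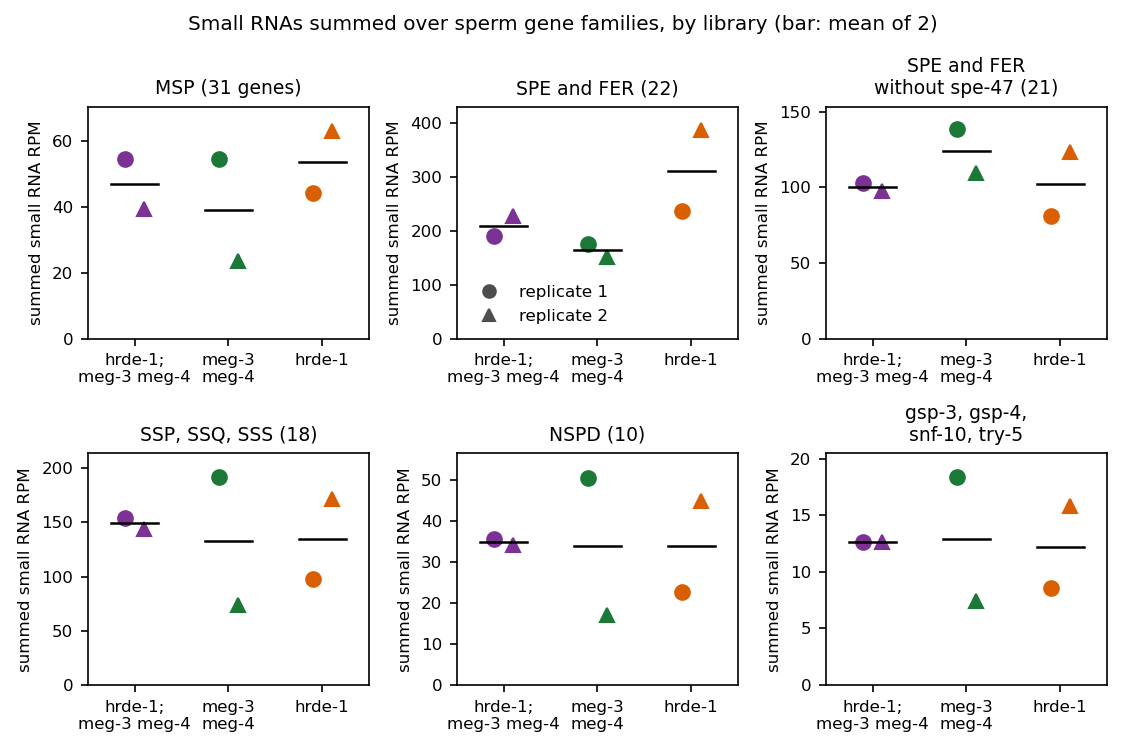
Summed small RNA level (RPM, scaled together over the 6 libraries) of each sperm gene family, with 1 point per library and a bar at the mean of the 2 libraries of a strain; each axis starts at 0. Only the panel with all 22 spe and fer genes puts both hrde-1 libraries (237 and 387 RPM) above all others, and the panel without spe-47 does not.

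The series title names the suppression by hrde-1 of small RNA changes seen in worms without meg-3 and meg-4, so triple mutants were first set against meg-3 meg-4. Small RNAs at 2 sperm genes differed, in opposite directions: fer-1 fell and spe-47 rose in triple mutants. Of the 85 genes, 55 had a mean deposited value of at least 1 and were tested, 12 of them msp genes and 17 of them spe genes or fer-1. The 2 genes called were 1 of 55 in each direction, beside 4.38% of all 13588 loci tested (limma on log2(value + 1), Benjamini-Hochberg adjusted p under 0.05). No msp, ssp, ssq, sss, nspd or single gene was called. The median log2 fold change was 0.06 over the 55 genes and −0.06 over all loci. Over the sperm genes it was 0.49 without the first meg-3 meg-4 library and −0.40 without the second, beside −0.01 and −0.08 over all loci. With all 4 libraries it was 0.11 over the 12 msp genes and 0.05 over the 17 spe and fer genes. Outside the spe family no gene had an unadjusted p under 0.05, and inside it 5 had.

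fer-1 (F43G9.6, WBGene00001414) encodes a ferlin, a large membrane protein that is needed for membranous organelles to fuse with the sperm surface. It had 9 and 2 reads in triple mutants, against 76 and 47 reads in meg-3 meg-4. The deposited values were 1.47 and 0.847 in triple mutants and 11.8 and 9.10 in meg-3 meg-4. Both triple mutant libraries were low and both meg-3 meg-4 libraries were high, with no overlap. The log2 difference was −2.41 (SE 0.40, limma adjusted p = 0.00131). In the authors' deposited table for the same comparison it was −3.08 with an adjusted p of 0.00259.

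spe-47 (Y23H5A.4, WBGene00021271) encodes a protein with an MSP domain that acts in spermatid activation, the step that makes a round spermatid motile. It had 483 and 277 reads in triple mutants, against 224 and 208 reads in meg-3 meg-4. Scaled for depth by the authors, these were 78.7 and 117 in triple mutants and 34.8 and 40.3 in meg-3 meg-4, again without overlap. The log2 difference was 1.34 (SE 0.34, limma adjusted p = 0.0347), and 1.38 with an adjusted p of 0.00946 in the authors' deposited table. The limma call was not firm. It was lost with edgeR (adjusted p = 0.0503), with the replicate number as a block (0.0589), on 2 other scalings and in 3 of the 4 fits that left out 1 library: 0.225 without the first triple mutant library, 0.928 without the second and 0.0701 without the first meg-3 meg-4 library. An annotated non-coding RNA, Y23H5A.9, overlaps spe-47 on the other strand, and its reads amounted to 16.3% of those at spe-47. It had 83 and 36 reads in triple mutants, against 29 and 32 in meg-3 meg-4, and a log2 difference of 1.29 (limma adjusted p = 0.0684). How the authors treated strand is not given in the sources used here, and whether the same reads were counted at both loci was not tested.

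spe-41 (K01A11.4, WBGene00004976), a TRP channel that sperm need to fertilise the egg, came closest to a call without reaching it. It had 70 and 26 reads in triple mutants, against 142 and 182 in meg-3 meg-4. The deposited values were 11.4 and 11.0 in triple mutants and 22.05 and 35.3 in meg-3 meg-4, with a log2 difference of −1.24 (SE 0.37, limma adjusted p = 0.0764). Its 2 triple mutant libraries agreed closely and its meg-3 meg-4 libraries were both higher. It was called in 3 of 14 alternatives: with the filter raised to a mean of 10 (limma adjusted p = 0.0410), with no filter (0.0448) and without the first meg-3 meg-4 library (0.0285). The other 11 gave limma, edgeR or DESeq2 adjusted p-values from 0.0592 to 0.669, among them 0.137 without the second meg-3 meg-4 library. spe-6, a casein kinase of spermatid activation, had 105 and 53 reads in triple mutants, against 80 and 36 in meg-3 meg-4, a log2 difference of 0.99 (adjusted p = 0.227).

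**Figure D2:**
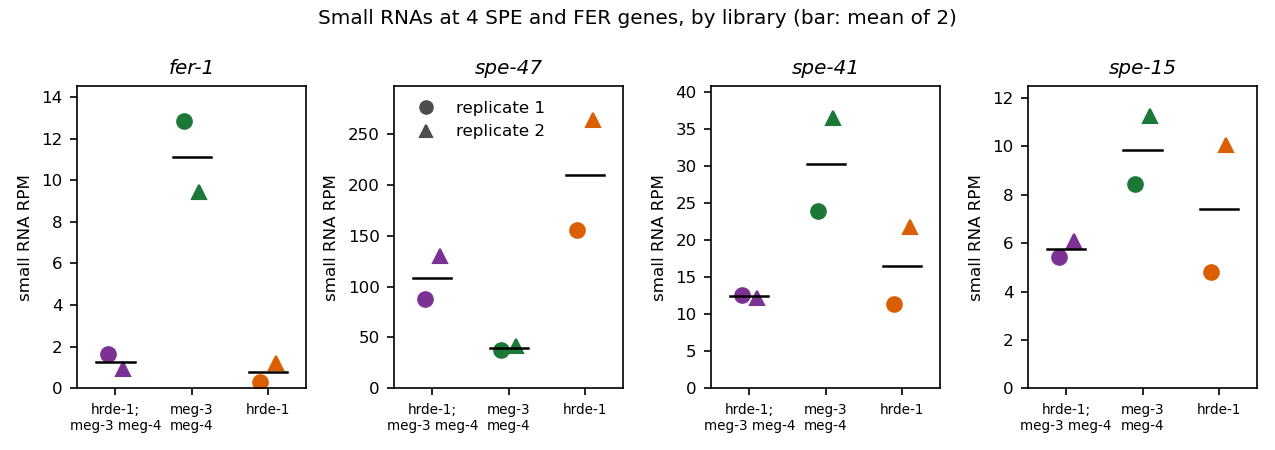
Small RNA level (RPM) at fer-1, spe-47, spe-41 and spe-15, with 1 point per library and a bar at the mean of 2 libraries; each axis starts at 0. fer-1 is high in both meg-3 meg-4 libraries alone (12.8 and 9.44 RPM), and spe-47 is lowest in them (37.8 and 41.8 RPM).

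Triple mutants were then set against hrde-1, which asks what the loss of meg-3 and meg-4 adds where hrde-1 is absent already. None of the 58 sperm genes tested was called, beside 6.27% of all 13914 loci (limma on log2(RPM + 1) over the 6 libraries). edgeR and DESeq2 called none of them either, and 2 of the 58 had an unadjusted p under 0.05 in limma. These were spe-47 and msp-77, both of which had lower values in triple mutants. spe-47 had 87.3 and 130 RPM in triple mutants, against 156 and 264 RPM in hrde-1, a log2 difference of −0.92 (95% interval −1.66 to −0.18, limma adjusted p = 0.170). msp-77 had 7 and 0 reads in triple mutants, against 11 and 14 in hrde-1, a log2 difference of −1.08 (limma adjusted p = 0.270). At fer-1 both strains were low, with 9 and 2 reads in triple mutants and 2 and 6 in hrde-1, and the interval of its log2 difference ran from −0.49 to 1.31. The median log2 fold change was 0.04 over the 58 genes and −0.05 over all loci. Over the sperm genes it was −0.28 without the first hrde-1 library and 0.39 without the second, beside −0.09 and 0.07 over all loci. The 15 msp genes tested had a median of −0.33, with 10 of them negative, beside 7488 of all 13914 loci. msp-55 and msp-77, both negative, averaged above 1 RPM in hrde-1 alone (1.78 and 2.24 RPM). They passed the filter through that strain, so the filter set part of this count. The near-identical msp copies may also share reads and are not 15 separate observations.

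The third comparison, meg-3 meg-4 over hrde-1, set the 2 mutant backgrounds against each other, and here the same 2 genes were called with the larger differences. Of 58 sperm genes tested 2 were called, beside 12% of all 13914 loci. fer-1 rose in meg-3 meg-4, with 76 and 47 reads against 2 and 6 reads in hrde-1. Its mean level was 11.1 ± 2.40 RPM in meg-3 meg-4 and 0.761 ± 0.666 RPM in hrde-1 (SD, n = 2 each), a log2 difference of 2.82 (SE 0.43, limma adjusted p = 1.06e-04). Its mean in hrde-1 lay under the filter of 1 RPM, and with no filter the limma adjusted p was 1.25e-04. spe-47 fell in meg-3 meg-4, with 224 and 208 reads against 1074 and 1284 reads in hrde-1. Its mean level was 39.8 ± 2.80 RPM in meg-3 meg-4 and 210 ± 76.2 RPM in hrde-1 (SD, n = 2 each), a log2 difference of −2.32 (SE 0.35, limma adjusted p = 1.09e-04). The non-coding RNA that overlaps spe-47 also fell, with 29 and 32 reads in meg-3 meg-4 against 184 and 213 in hrde-1 (log2 fold change −2.41, limma adjusted p = 1.21e-04). The 2 annotated loci that overlap fer-1 on the other strand, F43G9.15 and F43G9.18, had 0 and 5 reads over all 6 libraries. The fer-1 and spe-47 calls of this comparison held in each alternative in which the gene was tested, 15 for fer-1 and 16 for spe-47.

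Among the other sperm genes of this comparison, sss-2 and try-5 lay just outside the threshold. sss-2, of a sperm-specific family and annotated as a pseudogene in the reference, had 32 and 8 reads in meg-3 meg-4, against 45 and 71 in hrde-1, a log2 difference of −1.41 (SE 0.46, limma adjusted p = 0.0562). try-5 encodes a protease of the male seminal fluid that activates sperm. It had 4 and 7 reads in meg-3 meg-4, against 25 and 18 in hrde-1, a log2 difference of −1.22 (SE 0.41, limma adjusted p = 0.0652). The libraries of the strains did not overlap at either gene, and both rest on few reads in meg-3 meg-4. snf-10, the sperm transporter that is needed to respond to TRY-5, had 14 and 3 reads in meg-3 meg-4, against 6 and 10 in hrde-1, with a log2 difference of −0.04. gsp-3 and gsp-4, the sperm phosphatases of the PP1 family, had log2 fold changes of 0.47 and 0.35 (limma adjusted p = 0.669 and 0.775). Of the 15 msp genes tested 14 had a negative fold change, beside 7904 of all 13914 loci. Their median was −0.38, beside −0.09 over all loci. msp-55 and msp-77, both negative, averaged above 1 RPM in hrde-1 alone (1.78 and 2.24 RPM). They passed the filter through that strain, so the filter set part of this count. The near-identical msp copies may also share reads and are not 15 separate observations. None of the 15 was called in limma, edgeR or DESeq2, and none had an unadjusted p under 0.05.

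**Figure D3:**
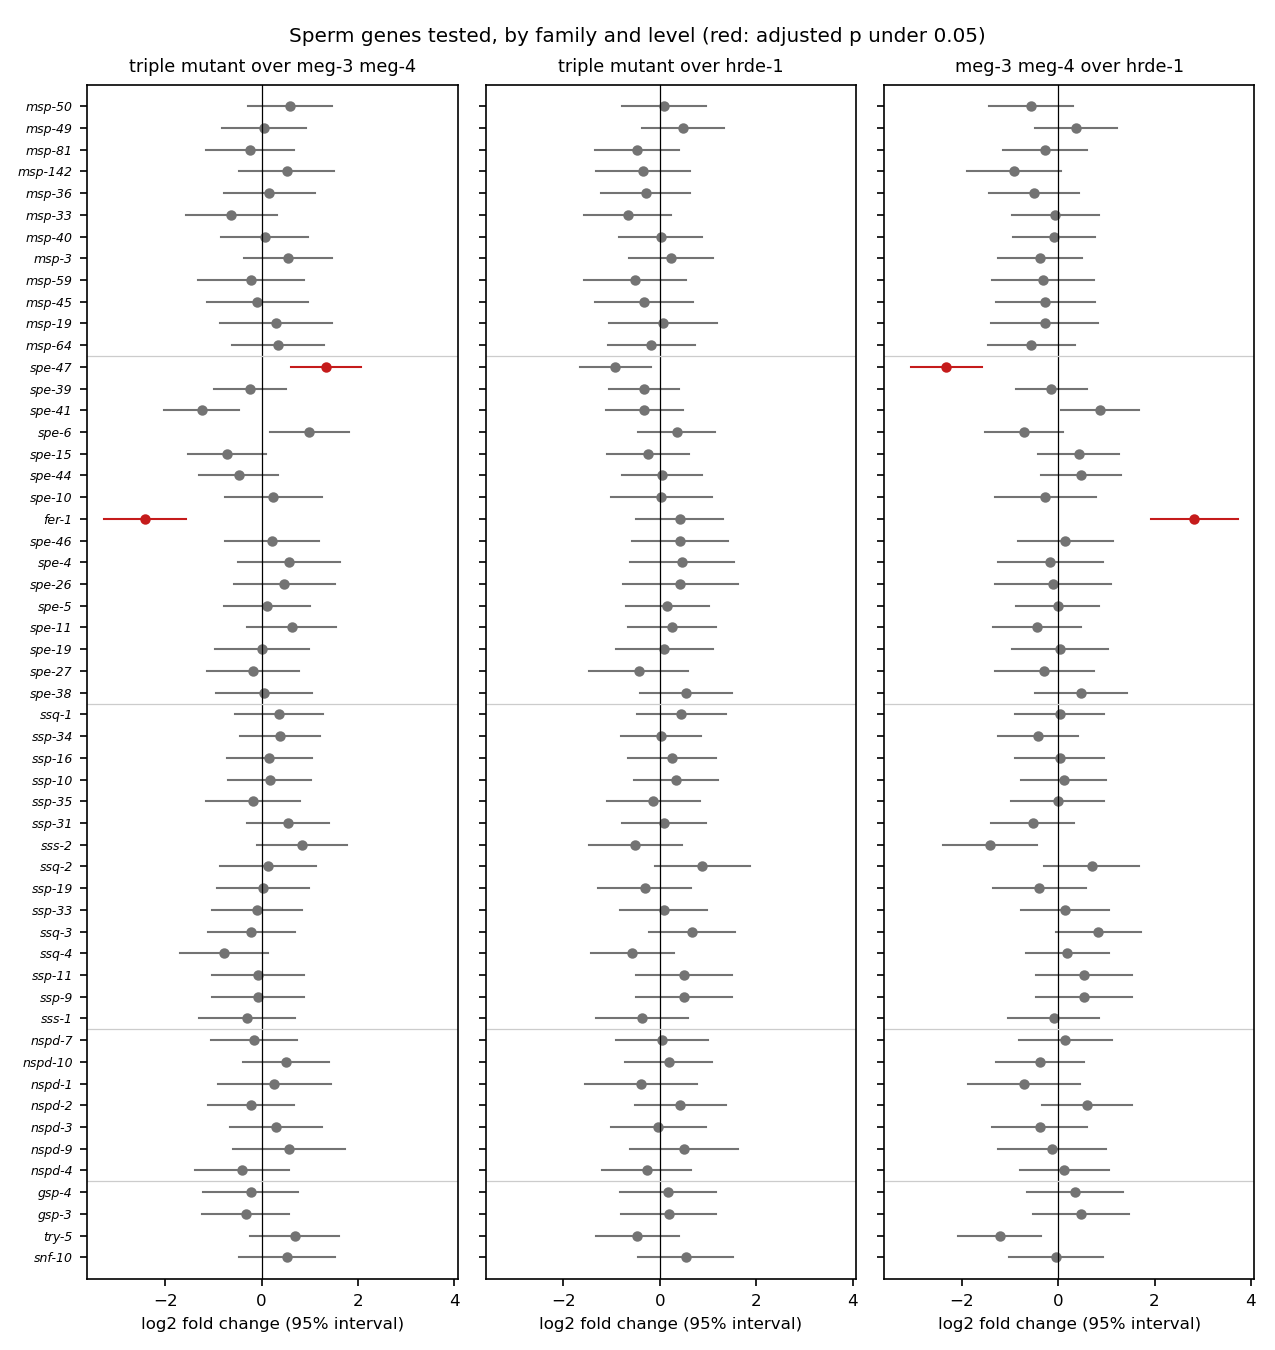
Log2 fold change with its 95% interval for 54 of the 55 sperm genes tested in all 3 comparisons, grouped by family (msp, spe and fer, ssp with ssq and sss, nspd, single genes) and ordered by level, with calls at an adjusted p under 0.05 in red. The red points are fer-1 and spe-47 in the comparisons that involve meg-3 meg-4, and the middle panel, triple mutants over hrde-1, has none.

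A further pattern ran within strains, between libraries that share a genotype. Among the 58 genes with a mean of at least 1 RPM, the first meg-3 meg-4 library was above the second at 52, with a median log2 ratio of 0.93, and at 26 of them by more than 2-fold. Over all 13914 loci the median was 0.01, and the first library was above the second at 50.2% and more than 2-fold above it at 9.29%. All 15 msp, all 15 ssp, ssq and sss and all 7 nspd genes were higher in the first library, at median log2 ratios of 0.80, 1.101 and 1.14. The 6 exceptions were spe-47, spe-41, spe-15, spe-44, spe-5 and try-5. ssq-1 had 271 and 74 reads in these libraries, and ssp-34 had 193 and 72, both at similar total depth. In hrde-1 the direction was the other one by number: the second library was above the first at 54 of 58 genes, beside 63.6% of all loci. The median log2 ratio was −0.66, beside −0.22 over all loci. In triple mutants the median log2 ratio was 0.27, beside 0.03 over all loci.

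Gene groups outside the sperm families also differed between the meg-3 meg-4 libraries. The 7 tested of the other sperm and seminal fluid genes (among them the msd and smz genes) were all higher in the first library, with a median log2 ratio of 1.09, as were 9 of 10 genes for Argonautes and 26G-RNA factors, with a median of 0.79. Of the 12 oocyte and MSP response genes 9 were higher in the first library, with a median of 0.37. The 6 yolk and 6 muscle genes went the other way, with medians of −3.32 and −2.37. The median log2 fold change over the tested sperm genes in meg-3 meg-4 over hrde-1 was −0.64 without the first meg-3 meg-4 library and 0.41 without the second, beside −0.15 and 0.02 over all loci. In the same comparison it was −0.37 without the first hrde-1 library and 0.24 without the second, beside −0.07 and −0.02 over all loci. Values of single genes in meg-3 meg-4 over hrde-1 also moved with the meg-3 meg-4 library that was left out. nspd-1 had a log2 fold change of −1.87 without the first library and 0.45 without the second, and ssq-2 one of −0.14 without the first and 1.52 without the second. sss-2 (−2.06 and −0.76) and msp-142 (−1.57 and −0.28) had lower values in meg-3 meg-4 either way.

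**Figure D4:**
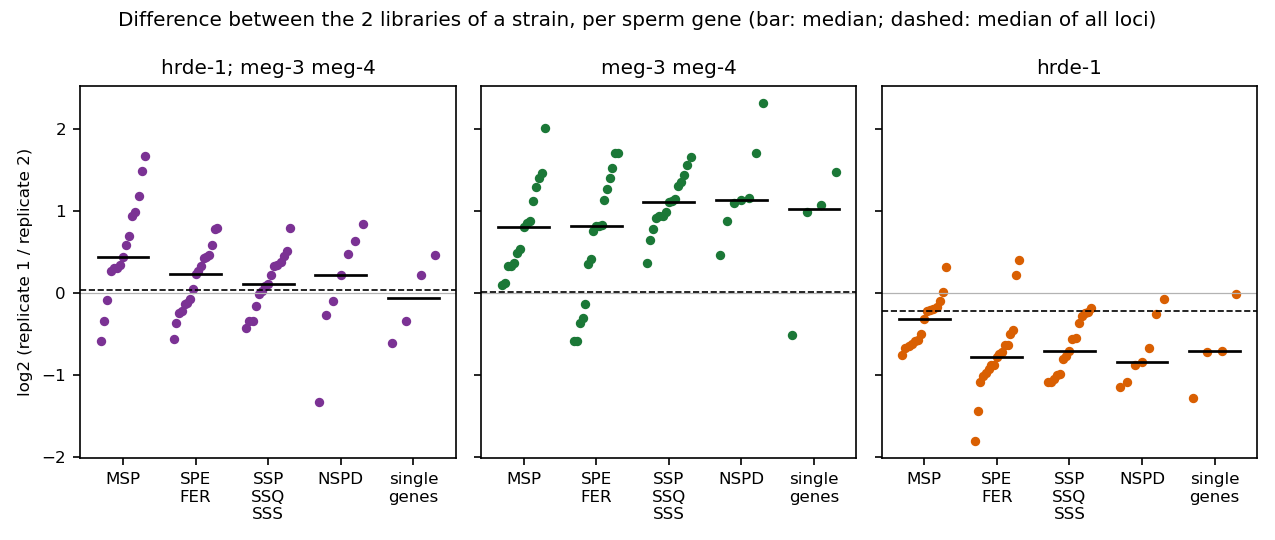
Log2 ratio of the first to the second library of each strain for the 58 sperm genes with a mean of at least 1 RPM, by family, with a bar at the family median and a dashed line at the median of all 13914 loci. In meg-3 meg-4 nearly all points lie above the dashed line and in hrde-1 most lie below it. Triple mutant points lie on both sides of it, with a median of 0.27 beside 0.03 over all loci. Of these 58 genes 38 are higher in the first triple mutant library, beside 52.8% of all loci, and the msp median is 0.44.

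The comparisons with N2 rest on the authors' deposited tables and have no error or number of replicates here. In the authors' deposited table for hrde-1 over N2, 3 of the 59 sperm genes with an adjusted p were called, beside 15.9% of 13876 loci. spe-41 fell, with a log2 difference of −2.91 (adjusted p = 1.14e-16 in the authors' deposited table). spe-15, which encodes a myosin that sorts organelles as spermatids bud, fell with a log2 difference of −1.66 (adjusted p = 0.00150 in the authors' deposited table). spe-47 rose, with a log2 difference of 1.03 (adjusted p = 0.00494 in the authors' deposited table). All 3 belong to the spe family, where they were 3 of 17 genes with an adjusted p, beside 15.9% of all loci. None of the 16 msp genes with an adjusted p was called in the authors' deposited table. Those 16 had a median log2 fold change of 0.50 in the authors' deposited table, beside 0.07 over all loci, and the 17 spe and fer genes a median of −0.38.

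In the authors' deposited table for triple mutants over N2, 2 of 52 sperm genes were called, beside 18.8% of 12595 loci. They were spe-41, with a log2 difference of −3.34 (adjusted p = 1.48e-33), and spe-15, with −2.07 (adjusted p = 1.67e-05), both lower in triple mutants in the authors' deposited table. spe-47 had a log2 difference of 0.02 (adjusted p = 0.972) in the authors' deposited table, and fer-1 one of −1.43 (adjusted p = 0.367). The 2 comparisons share the N2 side, so their values are given beside each other and not as 2 pieces of evidence. In the authors' deposited table for triple mutants over meg-3 meg-4, 2 of 44 sperm genes were called, fer-1 and spe-47, beside 4.33% of 11871 loci. In the 2 comparisons of triple mutants with meg-3 meg-4 the counts were near the share of all loci called, and in the other fits and tables they were below it. Beyond these calls, fer-1 had a log2 difference of −2.28 in hrde-1 over N2 in the authors' deposited table (adjusted p = 0.0933). ssp-31 had log2 fold changes of 1.40 in hrde-1 and 1.44 in triple mutants (adjusted p = 0.0738 and 0.0627), and ssq-4 one of −2.21 in triple mutants (adjusted p = 0.0790) in the authors' deposited tables.

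**Figure D5:**
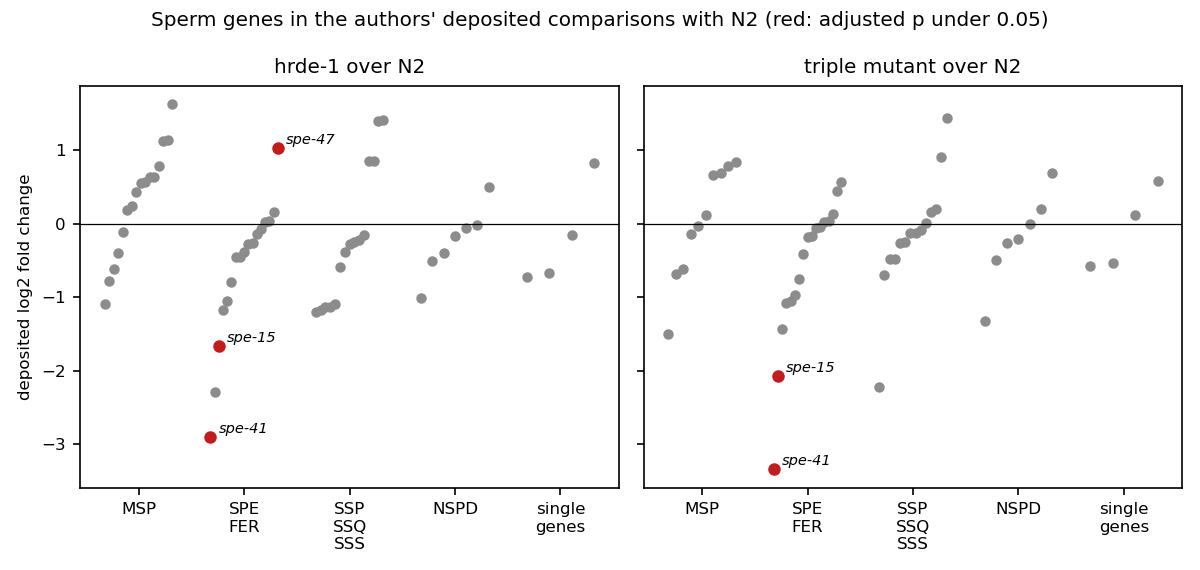
Log2 fold change of each sperm gene with an adjusted p in the authors' deposited tables for hrde-1 over N2 (59 genes) and of triple mutants over N2 (52 genes), by family, with calls at an adjusted p under 0.05 in red and named. All red points belong to the spe family, and spe-41 (−2.91 and −3.34) and spe-15 (−1.66 and −2.07) are red in both panels. They are 3 and 2 of 17 spe and fer genes, beside 15.9% and 18.8% of all loci.

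spe-41 and spe-15 were then read in the 6 libraries. spe-41 had 12.7 and 12.2 RPM in triple mutants, 24.0 and 36.5 RPM in meg-3 meg-4, and 11.3 and 21.8 RPM in hrde-1. spe-15 had 5.42 and 6.09 RPM in triple mutants, 8.44 and 11.2 RPM in meg-3 meg-4, and 4.79 and 10.1 RPM in hrde-1. At both genes meg-3 meg-4 had the highest mean, and the 2 strains that lack hrde-1 overlapped. At spe-15 the meg-3 meg-4 and hrde-1 libraries overlapped as well. None of the 3 fits called either gene. For meg-3 meg-4 over N2 no table was used. The difference between the 2 log2 fold changes of triple mutants in the authors' deposited tables, over N2 less over meg-3 meg-4, was −1.99 at spe-41, −1.22 at spe-15, −1.36 at spe-47 and 1.65 at fer-1. These tables were scaled separately, and the difference has no error and no test.

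None of the other spe genes with the most reads was called in the 3 fits. spe-39, which acts in vesicle traffic to the membranous organelles, had 18.6 and 19.7 RPM in triple mutants, 24.8 and 19.3 RPM in meg-3 meg-4, and 28.0 and 20.95 RPM in hrde-1. spe-6 had 19.0 and 24.8 RPM in triple mutants, 13.5 and 7.23 RPM in meg-3 meg-4, and 14.2 and 19.9 RPM in hrde-1. spe-44, a regulator of transcription in developing sperm, had 7.23 and 5.16 RPM in triple mutants, 7.59 and 9.64 RPM in meg-3 meg-4, and 4.50 and 7.60 RPM in hrde-1. At spe-39 and spe-44 the libraries of meg-3 meg-4 and hrde-1 overlapped, and at spe-6 both meg-3 meg-4 values lay below all others. spe-10, which encodes a palmitoyltransferase of the membranous organelles, had a mean of 4.59 RPM over the 6 libraries and no adjusted p under 0.8 in the 3 fits. Its 2 meg-3 meg-4 libraries had 38 and 9 reads.

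In the ssp, ssq and sss group the genes with the most reads were ssq-1, ssp-34, ssp-16, ssp-10, ssp-35, ssp-31, sss-2 and ssq-2. ssq-1 had 33.4 and 37.5 RPM in triple mutants, 45.7 and 14.9 RPM in meg-3 meg-4, and 19.2 and 34.3 RPM in hrde-1. ssp-34 had 33.6 and 26.7 RPM in triple mutants, 32.6 and 14.5 RPM in meg-3 meg-4, and 24.2 and 36.1 RPM in hrde-1. At both genes the 3 strains overlapped, and the widest spread was within meg-3 meg-4. ssp-9 and ssp-11 had the same number of reads in each of the 6 libraries (9 and 5 in triple mutants, 19 and 6 in meg-3 meg-4, 3 and 10 in hrde-1). They are separate loci on either side of ssq-2, and both are called ssp-9 in the reference, so their values count 1 set of reads or 2 that cannot be told apart here. Of the 10 nspd genes, 7 were tested and the highest were nspd-7, nspd-10, nspd-1 and nspd-2, with means of 7.33, 6.80, 6.66 and 5.87 RPM. nspd-1 had 38 and 10 reads in triple mutants, 65 and 7 in meg-3 meg-4, and 41 and 49 in hrde-1, the widest spread between libraries of a strain among the 58 genes. nspd-3, nspd-9, nspd-4 and nspd-5 had means from 3.03 to 0.313 RPM, and nspd-8 had 1 read in all.

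Lists of genes around sperm formation were drawn up with earlier results of these data known. Of the 21 tested genes of sperm fate and germ line sex determination, none was called in triple mutants over meg-3 meg-4, beside 4.38% of all loci. In triple mutants over hrde-1, 1 of 21 was called, beside 6.27% of all loci. It was tra-3, a calpain protease of the sex determination pathway, with 39 and 8 reads in triple mutants against 86 and 98 in hrde-1 (log2 fold change −1.45, limma adjusted p = 0.0378). In meg-3 meg-4 over hrde-1, 1 of 21 was called, beside 12% of all loci. It was her-1, the secreted signal of male fate, with 14 and 9 reads in meg-3 meg-4 against 65 and 36 in hrde-1 (log2 fold change −1.61, limma adjusted p = 0.0267). The authors' deposited tables called 3 of 21 of these genes in hrde-1 over N2 and 4 of 21 in triple mutants over N2, beside 15.9% and 18.8% of all loci. In both authors' deposited tables fog-1, tra-1 and tra-3 were lower. fog-1 encodes a cytoplasmic polyadenylation element binding protein that specifies sperm, and its log2 fold change was −1.21 (adjusted p = 0.0229) in hrde-1 and −1.31 (adjusted p = 0.00861) in triple mutants in the authors' deposited tables. tra-1 encodes the transcription factor at the end of the pathway, and its log2 fold change was −1.04 (adjusted p = 0.0190) in hrde-1 and −1.01 (adjusted p = 0.00779) in triple mutants in the authors' deposited tables. tra-3 had log2 fold changes of −1.60 in hrde-1 and −3.13 in triple mutants in the authors' deposited tables. mog-4, which promotes the switch to oocytes, was higher in triple mutants over N2 in the authors' deposited table (0.54, adjusted p = 0.0322).

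None of the 10 Argonautes and 26G-RNA factors, among them alg-3 and alg-4, which serve sperm transcripts, was called in the 3 fits. Of all loci, 4.38% were called in triple mutants over meg-3 meg-4, 6.27% in triple mutants over hrde-1 and 12% in meg-3 meg-4 over hrde-1. The authors' deposited tables called csr-1 as higher in hrde-1 over N2 (log2 fold change 1.47, adjusted p = 2.68e-04) and ergo-1 as lower in triple mutants over N2 (−0.95, adjusted p = 0.00683). Each was 1 of 10 genes, beside 15.9% of all loci in hrde-1 over N2 and 18.8% in triple mutants over N2. None of the other sperm and seminal fluid genes was called in any fit or deposited table, with 6 or 7 of 10 tested in the fits. None of the 12 tested genes of the oocyte and MSP response list was called in the fits. The authors' deposited tables called 1 of 12 in hrde-1 over N2, beside 15.9% of all loci. It was rme-2, the yolk receptor of the oocyte, which was higher in hrde-1 (1.11, adjusted p = 0.0198). In triple mutants over N2 the authors' deposited table called 1 of 12 as higher and 2 of 12 as lower, beside 18.8% of all loci. puf-5 was higher (0.89), and oma-2 and vab-1, an Eph receptor that binds MSP, were lower (−1.25 and −0.96). All 6 yolk genes had lower values in triple mutants over meg-3 meg-4 (median log2 fold change −2.96), and 5 of them were called. In meg-3 meg-4 over hrde-1 all 6 were called as higher (median 3.93). All 6 muscle genes also had lower values in triple mutants over meg-3 meg-4 (median −2.02), and 2 of them were called. In meg-3 meg-4 over hrde-1 all 6 were called as higher (median 2.76). For triple mutants over meg-3 meg-4 the authors' deposited table called none of the 6 yolk genes (adjusted p from 0.0871 to 0.492). It called 3 of 6 muscle genes as lower, beside 4.33% of all loci. The authors' deposited tables also called unc-54 as lower in hrde-1 over N2, 1 of 3 muscle genes beside 15.9% of all loci. They called vit-2 and vit-6 as higher in triple mutants over N2, 2 of 6 yolk genes beside 18.8% of all loci. The yolk and muscle values that involve meg-3 meg-4 rest largely on the second meg-3 meg-4 library. fer-1 was the other way between these libraries, higher in the first (12.8 RPM) than in the second (9.44 RPM), and spe-47 was similar in both (37.8 and 41.8 RPM).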

How the data were processed

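Small RNA of whole worms was treated with 5' polyphosphatase and made into TruSeq libraries, per the labels' protocols. The tools named in the submitters' processing notes are cutadapt, Bowtie2, HTSeq and DESeq2, with build ce10. Versions, strand setting and the handling of reads with several matches are not given in the sources used here. The authors deposited 3 tables with values headed fpm per the file headers, a scaled signal in 2 of them and RPM (columns of equal sum) in the other, together with log2 fold changes and adjusted p-values by the authors. The sample list holds no N2 library, so 4 N2 columns and 6 mean columns were not used.

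Every deposited value was a whole multiple of its library's value for 1 read (100% of values, tolerance 0.001 read), and reads were recovered on this basis. Triple mutants and meg-3 meg-4 were compared in the table that holds both, with limma 3.58.1 and an intensity trend on log2(value + 1), keeping loci whose mean was at least 1. For the comparisons with hrde-1 the recovered reads of 6 libraries were scaled together by the trimmed mean of M values (TMM) and fitted in 1 limma model of 3 groups. Adjusted p-values are Benjamini-Hochberg over all loci tested, called under 0.05. Fold changes are on the log2(value + 1) scale, which understates those of low genes. The fits were tested on simulated data. edgeR 4.0.16 (quasi-likelihood) and DESeq2 1.42.0 were run on the recovered reads as alternatives; the plan had foreseen limma because the deposited values are normalized. Over all loci edgeR called 545 in triple mutants over meg-3 meg-4, 897 in triple mutants over hrde-1 and 1771 in meg-3 meg-4 over hrde-1, where limma called 595, 872 and 1673. Limits for 0 reads (3 reads) cover counting error only, as reads carry no molecular identifiers. Of the 85 sperm genes, 84 were matched to the WBcel235 annotation (Ensembl release 115) by gene ID and 1, spe-44, by sequence name, for lengths, neighbours and overlaps only; coordinates of the files' build and sequences are not used here. The genes named are mainly those called in any comparison, up to 8 with the highest mean RPM in each family, and those that an alternative called. Genes called only with the scaling to miRNA reads were not all named. The members, lists and tests were chosen with earlier results of these data known. The values of 1 sperm gene are not reported here, though it is included in the counts and sums.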

Additional observations from a re-analysis of the deposited data

How the results depend on the processing

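The number of sperm genes called in triple mutants over meg-3 meg-4 was 2, and it was 1 (fer-1) with the replicate block, scaled to library totals, scaled to miRNA reads and with edgeR, and 1 to 2 with 1 library left out. fer-1 was called in all 13 alternatives that tested it and spe-47 in 7 of 14. In triple mutants over hrde-1 the count of 0 became 1 of 58 (spe-47) scaled to library totals, beside 762 of 13898 loci. Scaled to miRNA reads it became 16 of 58, all lower, beside 6986 of 14046 loci. In meg-3 meg-4 over hrde-1 the count of 2 was 1 with a filter at a mean of 10, which left fer-1 out of the test. Scaled to miRNA reads it was 15 of 58 (1 higher and 14 lower), beside 4934 of 14046 loci. miRNAs took 18.2% and 19.5% of the reads in hrde-1 and 28.6% to 32.1% elsewhere, and scaling to them moved the median of all loci to −0.98 in triple mutants over hrde-1 and −0.89 in meg-3 meg-4 over hrde-1, against −0.05 and −0.09; library totals gave −0.41 and −0.26. All loci called then split into 71 higher and 6915 lower in triple mutants over hrde-1 (349 and 523 as reported, 110 and 652 with library totals), and 329 and 4605 in meg-3 meg-4 over hrde-1 (796 and 877 as reported, 657 and 1081 with library totals). Signs were followed in each comparison for fer-1, spe-47, spe-41, spe-15 and the genes called there outside the miRNA scaling. Among these genes they turned only at values that were not called. In triple mutants over hrde-1, fer-1 turned to −0.095 (miRNA). With 1 library left out, spe-15 (−0.71 to 0.22) and spe-41 (−0.76 to 0.12) turned, both without hrde-1 replicate 2. In meg-3 meg-4 over hrde-1, spe-15 turned to −0.40 (miRNA). With 1 library left out it ranged from −0.042 to 0.89 (negative without hrde-1 replicate 1). spe-41 turned to −0.011 (miRNA). ssq-2 turned to −0.059 (miRNA) and ranged from −0.14 to 1.52 (negative without meg-3 meg-4 replicate 1). nspd-1 ranged from −1.87 to 0.45 (positive without meg-3 meg-4 replicate 2). Outside these genes, spe-44 had 0.05 in triple mutants over hrde-1 as reported, and was called as lower scaled to miRNA reads. Scaled to miRNA reads, the summed msp level was 34.3 RPM in triple mutants and 85.2 RPM in hrde-1, that of spe and fer genes 156.4 in triple mutants, 139.2 in meg-3 meg-4 and 489.2 in hrde-1, and that of all sperm genes 336.1 in triple mutants and 855.9 in hrde-1; library totals gave 179.4 (spe and fer) and 387.4 (all) in triple mutants. At a deposited adjusted p under 0.1, 5 genes were called in hrde-1 over N2 and 4 in triple mutants over N2. The share of all loci under 0.1 was not counted, so these 2 counts have no background beside them. Same-numbered replicates are not shown to be paired: deviations of replicate 1 from its strain mean correlated at −0.11 between triple mutants and meg-3 meg-4, −0.19 between triple mutants and hrde-1, and 0.56 between meg-3 meg-4 and hrde-1 (6469 loci), and the block changed no other count of sperm genes. The cause of these changes was not tested, except where the scaling or the filter sets them by construction. Of the 31 msp genes, 16 had a mean under 1 RPM and were not tested in the comparisons with hrde-1. Whether depth or the handling of reads with several matches set this was not tested.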
